A study of Homo sapiens with 6 samples.

Results

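The aminoacyl-tRNA synthetase genes were examined in SW872, an established human liposarcoma cell line, after treatment with Apatinib, a small molecule inhibitor of the VEGFR-2 tyrosine kinase. The members were the 36 genes whose name in the deposited counts table equals the symbol of a synthetase. They comprise 20 cytosolic members and 16 mitochondrial members, the latter with symbols ending in 2. All 36 were found among the 57773 genes of the table and all 36 passed the filter on low counts, as part of the 16290 genes tested. The Apatinib group held 3 replicates treated with 18 μM for 24 h, and the control group held 3 replicates whose labels give no treatment and name no vehicle. Both groups are cultures of the same cell line. The study's methods call the replicates biological, while the labels do not say how they were made, so the p values measure the spread between these samples. In bulk RNA, fewer cells that express a gene and less RNA per cell cannot be told apart.

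An aminoacyl-tRNA synthetase joins an amino acid to its transfer RNA, which then carries it to the ribosome. The cytosolic enzymes serve the translation of nuclear messages. A separate set, also encoded in the nucleus, is imported to serve the mitochondrial ribosome, and GARS and KARS each encode both forms, so that neither has a mitochondrial partner here. FARSA and FARSB are the subunits of one enzyme, and EPRS is a fusion of the glutamate and proline enzymes. Several cytosolic enzymes sit together in a multi-synthetase complex held by the scaffold proteins AIMP1, AIMP2 and EEF1E1. When uncharged transfer RNA builds up, the kinase GCN2 phosphorylates the initiation factor eIF2α, and translation of the transcription factor ATF4 rises. ATF4 is known to act on genes of amino acid synthesis, amino acid transport and transfer RNA charging, through a short sequence called the C/EBP-ATF response element.

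Total counts were between 17043314 and 22067558 per replicate. The share of counts from genes of the mitochondrial genome was 5.16% to 5.69% with Apatinib against 4.47% to 5.11% in the control, and the 10 most abundant genes took 6.33% to 7.03% against 5.46% to 6.14%. Neither share overlapped between the groups, and their part in the results below was not tested. The median log2 fold change of all tested genes was 0.00. The replicates were not evenly spaced. Control replicates 1 and 2 were much alike, with an average chi-square of 2.27 over genes (1 would be sampling noise), against 18.2 to 44.5 for other pairs within a group, and Apatinib replicate 2 lay farthest from its group. The 7 mesenchymal markers were all detected. Of the 6 adipocyte markers, PPARG had 859 to 1138 counts, LPL 187 to 416 counts and PLIN1 14 to 30 counts per replicate, LEP had at most 2, and the defining ADIPOQ and FABP4 had 0 counts in every replicate. The epithelial markers EPCAM, CDH1 and KRT19 had at most 23 counts. Of the leukocyte markers, PTPRC had 0 counts in every replicate, and CD68 had at most 1 count, yet 6.78 to 11.8 FPKM (fragments scaled to the length of the transcript and to sequencing depth) with Apatinib against 1.79 to 3.30 in the control. Of the endothelial markers, VWF had 22 to 53 counts against 9 to 27, and KDR, which encodes VEGFR-2, had 4 to 11. COL3A1, LPL and VWF among these markers were called higher with Apatinib, and their part in the results below was not tested.

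With Apatinib, 8 of the 20 cytosolic synthetase genes were higher, by 1.47 to 2.36 times, and none of the 20 was lower. They were AARS, CARS, GARS, IARS, MARS, SARS, WARS and YARS, which charge the transfer RNAs of alanine, cysteine, glycine, isoleucine, methionine, serine, tryptophan and tyrosine. Of all tested genes, 5.97% were called higher and 5.48% lower. A gene was called at an FDR (the p value of the edgeR quasi-likelihood test, adjusted over all tested genes) under 0.05 together with a log2 fold change past 0.5 in either direction. None of the 16 mitochondrial members was called, with edgeR or with DESeq2, and 1 of them, IARS2, had an unadjusted p value under 0.05 in edgeR. DESeq2 called the same 8 cytosolic members higher, with 3.06% called higher of the 32596 genes to which it gave a p value. Those 32596 include genes without a DESeq2 FDR, SARS2 among them, so this share and that of edgeR have unlike bases. The median log2 fold change was 0.10 over the cytosolic members, with a range of -0.36 to 1.24, and 0.00 over the mitochondrial members, with a range of -0.37 to 0.48. The cytosolic median was 0.30 after a correction for GC content, with the same 8 genes called and 4.79% of all genes called higher. The 8 called members had a median of 0.91, and the other 12 cytosolic members lay between -0.36 and 0.19. Leaving out control replicate 1 left 5 called cytosolic members, with 1.15% of all genes called higher, and leaving out control replicate 2 also left 5, with 1.29%. Summing these controls as 1 sample left 4 (AARS, MARS, SARS and WARS), with 1.24%.

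**Figure D1:**
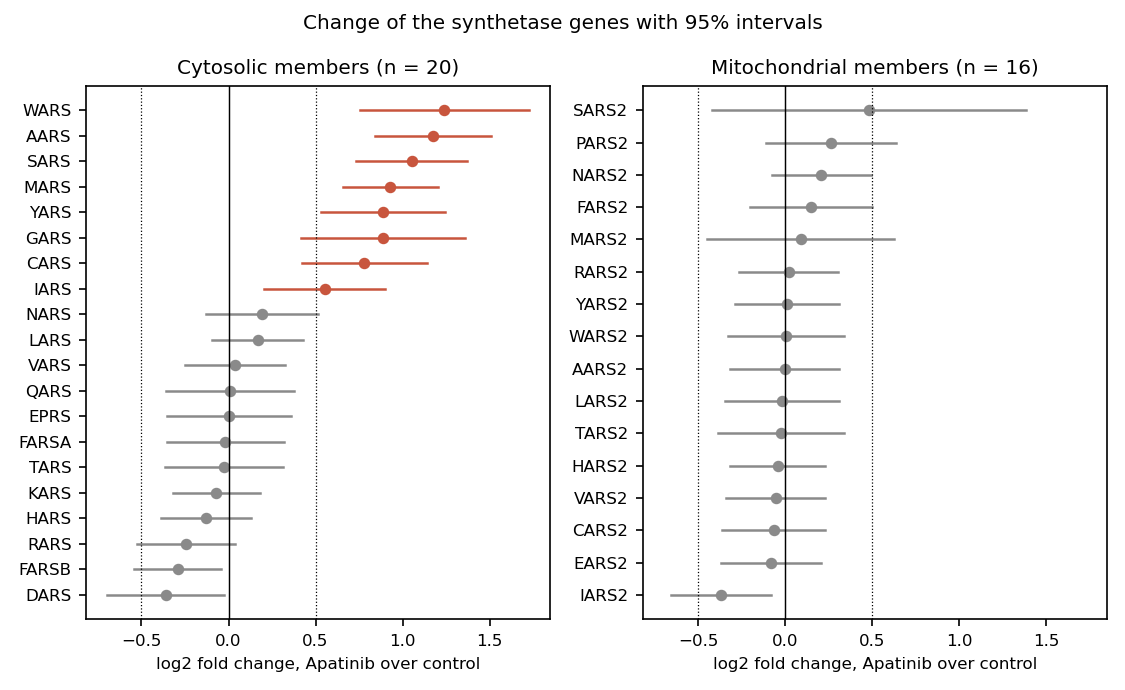
Log2 fold change of Apatinib over control (x axis) for each synthetase gene (y axis), cytosolic on the left and mitochondrial on the right, with edgeR estimates as points and 95% intervals as lines. Orange marks the 8 members called higher, grey the 28 members not called, and the dotted lines the size of 0.5 that a call requires.

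Sequences near the transcript start are shown for the members whose promoter window held the C/EBP-ATF response element, since this is the element through which ATF4 is known to act. The windows came from RefSeq on GRCh38.p14 and run from 250 bases before each start to 50 after it. They were matched for 16 of the 20 cytosolic and 14 of the 16 mitochondrial members, and not for DARS, LARS, VARS, YARS, AARS2 and VARS2. The letters searched were TGATGNAA and their reverse complement TTNCATCA, where N is any base, and a member counted once however many starts it had. The stretches below are written 5′ to 3′ on the strand of the gene, with the matched letters in capitals.
AARS: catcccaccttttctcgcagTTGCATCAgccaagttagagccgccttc
MARS: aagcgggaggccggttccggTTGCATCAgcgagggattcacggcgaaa
GARS: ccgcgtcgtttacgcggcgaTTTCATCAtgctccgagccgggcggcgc
CARS: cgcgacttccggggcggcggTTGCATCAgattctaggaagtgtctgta
IARS: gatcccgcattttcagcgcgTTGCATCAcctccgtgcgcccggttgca
TARS: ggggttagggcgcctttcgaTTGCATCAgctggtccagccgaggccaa
NARS: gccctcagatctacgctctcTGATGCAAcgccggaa
YARS2: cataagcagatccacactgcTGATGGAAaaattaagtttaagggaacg

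These stretches lie at chr16:70289666-70289713 for AARS, chr11:3057398-3057445 for CARS, chr9:92293683-92293730 for IARS, chr18:57621807-57621842 for NARS and chr12:32756067-32756114 for YARS2, all on the minus strand. On the plus strand they lie at chr12:57488044-57488091 for MARS, chr7:30594825-30594872 for GARS and chr5:33440947-33440994 for TARS. AARS, CARS, IARS, MARS and TARS held the same 8 letters, TTGCATCA. NARS held the reverse complement of these letters, and GARS differed from them in the base written N. The matches of MARS, CARS and IARS began 4, 2 and 13 bases before a start, that of GARS 33 bases before, and that of AARS 187 bases before. The matches of TARS and NARS began 2 and 14 bases after a start. CARS, GARS and TARS have 2 starts in the table, and positions refer to the start whose window holds the match.

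A match was found in 7 of the 16 cytosolic members with a window and in 1 of the 14 mitochondrial members with one, against 4.46% of the 27305 genes with RefSeq windows and 2.77% of the 11364 tested genes among them. Of the called members with a window, 5 of 7 had a match. SARS and WARS had none in their windows. Of the 9 cytosolic members with a window that were not called, TARS and NARS had a match. YARS2, whose match began 197 bases before the start, was not called either. Over all tested genes with a window, 33 of 315 with a match were called higher (10.5%), and 638 of 11049 without one (5.77%). These counts include the synthetase members themselves. A match describes the letters in a window, and binding of ATF4 was not measured.

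**Figure D2:**
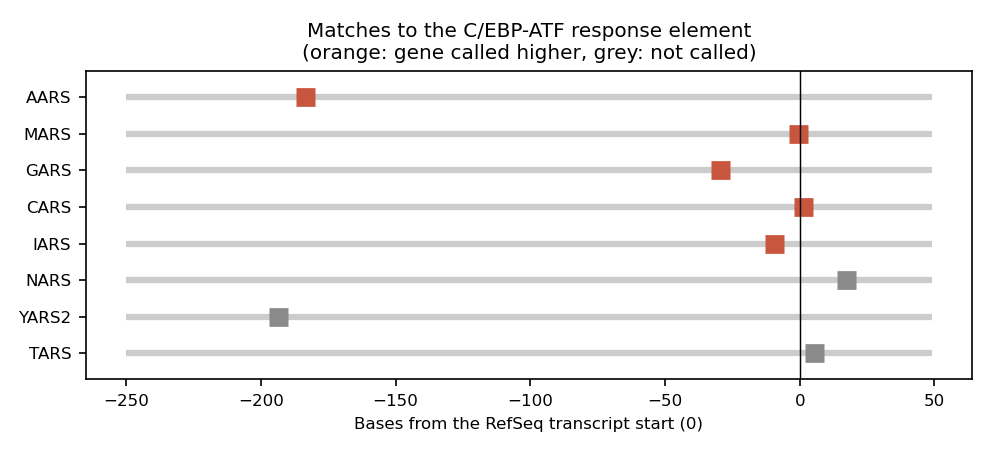
Position of the response element match (coloured block) within the RefSeq window (grey bar) of the 8 synthetase genes that hold one, in bases from the transcript start at 0. Genes called higher are in orange, and 6 of the 8 blocks begin within 33 bases of the start, while those of AARS and YARS2 begin 187 and 197 bases before it.

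AARS, the alanyl-tRNA synthetase, had the smallest p value of the members. Its expression was 724, 861 and 568 CPM (scaled counts, edgeR's common unit of expression) in Apatinib replicates 1, 2 and 3, and 316, 334 and 303 CPM in control replicates 1, 2 and 3. The lowest treated value was far above the highest control value. The log2 fold change was 1.18 ± 0.15 (SE, n = 3 per group), with an edgeR FDR of 0.00331. WARS, the tryptophanyl-tRNA synthetase, which interferon also induces, had the largest change, with 487, 798 and 381 CPM against 239, 249 and 217. Apatinib replicate 2 was far above the other treated replicates, which still did not overlap the controls. The log2 fold change of WARS was 1.24 ± 0.22 (SE, n = 3, edgeR FDR 0.00886), and it was 0.89 without Apatinib replicate 2, below the 1.03 of AARS and the 0.90 of SARS in that fit. SARS, the seryl-tRNA synthetase, had 311, 380 and 258 CPM against 156, 153 and 148. Its controls lay close together, far below the treated replicates, and its log2 fold change was 1.05 ± 0.15 (SE, n = 3, edgeR FDR 0.00361).

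MARS, the methionyl-tRNA synthetase, charges the initiator transfer RNA as well as the elongator. It had 291, 319 and 251 CPM in the treated replicates against 154, 154 and 144 CPM in the controls. The treated values were closer together than those of WARS, and the log2 fold change was 0.93 ± 0.12 (SE, n = 3, edgeR FDR 0.00358). In GENCODE 29 the exons of MARS share 5.05% of their bases with DDIT3 and 7.38% with ARHGAP9 on the opposite strand. Those of WARS share 6.06% with AL157871.4 and 4.51% with WDR25, those of YARS 4.82% with S100PBP, those of GARS 2.38% with GARS-DT and those of CARS 2.04% with CARS-AS1, also on the opposite strand, and whether counting used the strand is not given in the sources used here. YARS, the tyrosyl-tRNA synthetase, had 275, 348 and 214 CPM against 157, 151 and 145, and no values overlapped. Its log2 fold change was 0.89 ± 0.16 (SE, n = 3, edgeR FDR 0.00961), and it was no longer called when control replicates 1 and 2 were summed (edgeR FDR 0.0501), although its log2 fold change was then 0.90.

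GARS, the glycyl-tRNA synthetase, had 398, 660 and 338 CPM in the treated replicates against 266, 270 and 219 CPM in the controls. Apatinib replicate 2 again stood above the others, and the groups did not overlap. The log2 fold change was 0.89 ± 0.21 (SE, n = 3, edgeR FDR 0.0250), and 0.55 without Apatinib replicate 2. CARS, the cysteinyl-tRNA synthetase, had 166, 224 and 138 CPM against 105, 104 and 98.4. Its groups did not overlap either, and the log2 fold change was 0.78 ± 0.16 (SE, n = 3, edgeR FDR 0.0147). IARS, the isoleucyl-tRNA synthetase, had the smallest change among the called members in the main comparison, with 447, 668 and 471 CPM against 380, 373 and 328. Apatinib replicates 1 and 3 were nearer to the controls than to Apatinib replicate 2, and the log2 fold change was 0.55 ± 0.16 (SE, n = 3, edgeR FDR 0.0428). With the GC correction it was 0.78 (edgeR FDR 0.00889), above the 0.67 of CARS. Of these genes, GARS and CARS lost the call in 2 of the 6 fits that left out 1 replicate (without control replicate 1 or 2), and IARS in 4 of 6 (also without control replicate 3 and without Apatinib replicate 2, where its log2 fold change was 0.36). Their edgeR FDR reached 0.0871, 0.0705 and 0.142 in those fits, whereas AARS, MARS, SARS, WARS and YARS remained called in all 6. The changes were not smaller without control replicate 1 or 2, with log2 fold changes of 0.92 and 0.94 for GARS, 0.79 and 0.79 for CARS and 0.59 and 0.58 for IARS.

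In all 8 called members, Apatinib replicate 2 had the highest CPM of the 6 replicates and control replicate 3 the lowest. Of all 973 genes called higher, Apatinib replicate 2 was the highest in 44.2% and control replicate 3 the lowest in 22.3%. The part of this replicate in the size of the changes was not tested beyond the fit without it, in which 7 of the 8 genes were called, with 5.28% of all genes called higher.

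**Figure D3:**
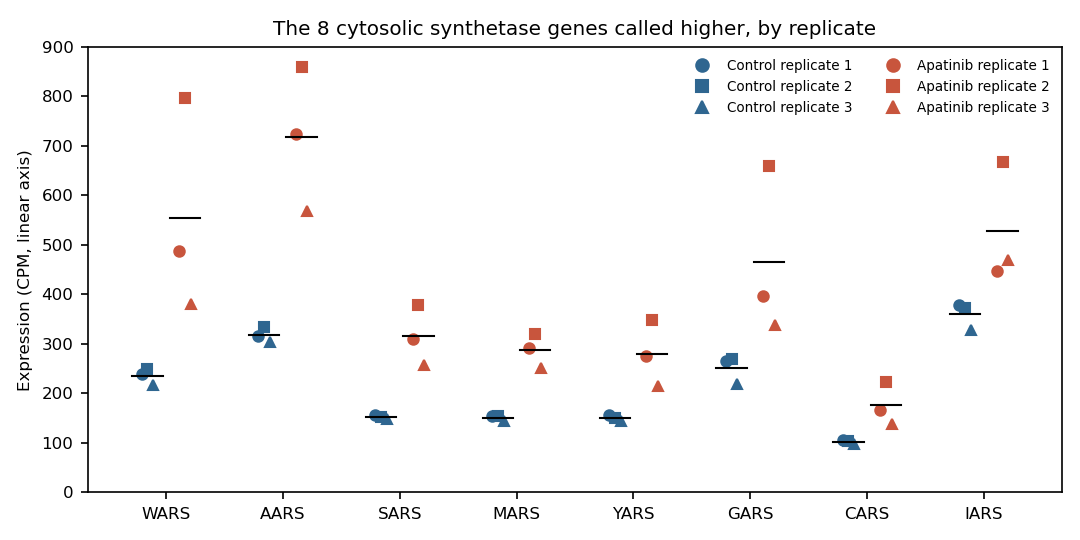
CPM (y axis, linear) of the 8 called synthetase genes (x axis) in each replicate, with control in blue, Apatinib in orange, a symbol for each replicate number and a black line at each group mean. Every orange point lies above every blue point of the same gene, and the square of Apatinib replicate 2 is the highest in each.

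The other 12 cytosolic members were not called. Those with the smallest p values all had values below 0. With the correction for GC content, the values of FARSB, DARS and RARS were -0.022, -0.032 and -0.010 on the log2 scale. FARSB, the beta subunit of phenylalanyl-tRNA synthetase, had 60.2, 55.0 and 61.5 CPM in the treated replicates against 73.5, 70.5 and 72.4 CPM in the controls, without overlap (log2 fold change -0.29 ± 0.11, SE, edgeR FDR 0.109). Its partner subunit FARSA had a log2 fold change of -0.02. DARS, the aspartyl-tRNA synthetase, had 76.6, 107 and 104 CPM against 134, 130 and 106, with the groups overlapping (-0.36 ± 0.15, SE, edgeR FDR 0.136). RARS, the arginyl-tRNA synthetase, had 76.4, 75.1 and 93.3 CPM against 103, 99.1 and 88.5, again with overlap (-0.24 ± 0.13, SE, edgeR FDR 0.226). TARS, the threonyl-tRNA synthetase, and NARS, the asparaginyl-tRNA synthetase, are named here because they hold the response element, a choice made after their values were seen. The log2 fold change of TARS was -0.03 and that of NARS 0.19. TARS took values of 334, 487 and 398 CPM against 443, 441 and 358, so that Apatinib replicate 2 was the highest and Apatinib replicate 1 the lowest of all 6 replicates.

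In all, the groups did not overlap in 9 cytosolic members, with the 8 called members above the control and FARSB below it. The same was true of 3 mitochondrial members, with NARS2 and SARS2 above and IARS2 below. Among all tested genes the Apatinib group lay wholly above the control in 17.5% and wholly below in 15.7%. Of the 8 cytosolic members of the multi-synthetase complex, MARS and IARS were called, against 6 of the 12 members outside it. The medians were 0.01 and 0.49 on the log2 scale. By catalytic fold, 5 of the 9 class I enzymes were called (CARS, IARS, MARS, WARS and YARS) and 3 of the 10 class II enzymes (AARS, GARS and SARS), with EPRS belonging to both classes. Neither split was tested, and 5.97% of all tested genes were called higher.

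None of the mitochondrial partners of the called members was called. IARS2, which charges mitochondrial isoleucine transfer RNA, had 171, 148 and 200 CPM in the treated replicates against 220, 232 and 217 CPM in the controls. Its groups did not overlap, and the log2 fold change was -0.37 ± 0.13 (SE, n = 3, edgeR FDR 0.0858), but it was -0.066 (FDR 0.761) with the GC correction. AARS2 had 53.9, 40.5 and 44.5 CPM against 42.8, 44.1 and 52.4, with a log2 fold change of -0.00 ± 0.14 (SE). The values of both groups covered nearly the same range. With the GC correction the log2 fold change of AARS2 was -0.19. CARS2 had 37.0, 32.1 and 34.3 CPM against 33.0, 34.2 and 41.0, with a log2 fold change of -0.07 ± 0.13 (SE), or -0.20 with the GC correction. WARS2 had 14.8, 12.4 and 14.7 CPM against 15.2, 14.0 and 12.6, with a log2 fold change of 0.00 ± 0.15 (SE). In both genes the groups overlapped. YARS2 had 29.0, 24.3 and 31.3 CPM against 28.6, 27.1 and 28.4, with a log2 fold change of 0.01 ± 0.14 (SE). Apatinib replicate 2, the highest in YARS, was the lowest in YARS2. MARS2 had 5.24, 10.4 and 6.58 CPM against 6.47, 6.43 and 8.02, with a log2 fold change of 0.09 ± 0.25 (SE), and its Apatinib replicate 2 stood above all others. The 95% intervals of AARS2, CARS2, WARS2 and YARS2 all stayed between -0.36 and 0.34 on the log2 scale, whereas that of MARS2 ran from -0.45 to 0.62.

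SARS2, the mitochondrial seryl-tRNA synthetase, was poorly measured by the counts. Its reads numbered 12, 10 and 10 in the treated replicates against 6, 10 and 9 in the controls, which gave a log2 fold change of 0.48 with a 95% interval from -0.42 to 1.38. The FPKM values of SARS2 were 7.93, 6.91 and 6.08 against 7.10, 7.47 and 8.75. These are close to the FPKM of LARS2, which had 689 to 1120 counts per replicate. In GENCODE 29, 46.2% of the exon bases of SARS2 are shared with AC011455.2 on the same strand. On the log2(FPKM + 1) scale the difference of SARS2 was -0.14, so its direction depends on the kind of value. NARS2, which charges mitochondrial asparagine transfer RNA, had 24.7, 28.4 and 24.8 CPM against 23.5, 22.2 and 21.9 (log2 fold change 0.21 ± 0.13, SE, edgeR FDR 0.308). PARS2, for proline, had 10.4, 10.4 and 8.47 CPM against 7.62, 7.64 and 9.16 (0.26 ± 0.17, SE, edgeR FDR 0.327). NARS2 did not overlap between the groups, and PARS2 did. With the GC correction the log2 fold change of NARS2 was 0.45 (edgeR FDR 0.0320), below the size that a call requires. Without SARS2, the 15 mitochondrial members lay between -0.37 and 0.26.

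For the 13 amino acids with 1 cytosolic and 1 mitochondrial member of matching symbol, the log2 ratio of cytosolic to mitochondrial CPM was compared within each replicate. Phenylalanine, glutamate and proline, whose cytosolic enzymes are encoded by FARSA with FARSB and by EPRS, have no such pair and were left out. The ratio was higher with Apatinib without overlap for 7 pairs, which are those of alanine, cysteine, isoleucine, methionine, serine, tryptophan and tyrosine, and lower without overlap for the arginine pair. For comparison, single genes lay wholly above the control in 17.5% and wholly below in 15.7% of all tested genes, and the share for ratios of other genes was not computed. For AARS over AARS2 the log2 ratio was 3.74, 4.40 and 3.67 in the treated replicates against 2.88, 2.92 and 2.53 in the controls, a difference of 1.16. The tryptophan pair had 5.03, 5.99 and 4.68 against 3.96, 4.15 and 4.10 and so differed by 1.17. The isoleucine pair had 1.39, 2.18 and 1.23 against 0.79, 0.68 and 0.60 and differed by 0.91, in which the lower values of IARS2 add to the higher values of IARS. The differences of the methionine, tyrosine and cysteine pairs were 0.89, 0.86 and 0.81. The serine pair differed by 0.62 in CPM, which rests on the few counts of SARS2, and by 1.17 in FPKM. The arginine pair had 0.96, 1.18 and 1.16 against 1.45, 1.45 and 1.19, with a difference of -0.26. None of the ratios was corrected for GC content. With that correction the log2 fold changes of RARS, IARS2 and IARS were -0.010, -0.066 and 0.78. Each of these 8 pairs had p = 0.1 in an exact two-sided permutation test over samples, the smallest p that 3 against 3 allows, so none of the 13 comparisons could pass 0.05. The pairs of leucine, valine, threonine, asparagine and histidine differed by 0.19, 0.09, 0.01, -0.01 and -0.08, with overlap in each.

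**Figure D4:**
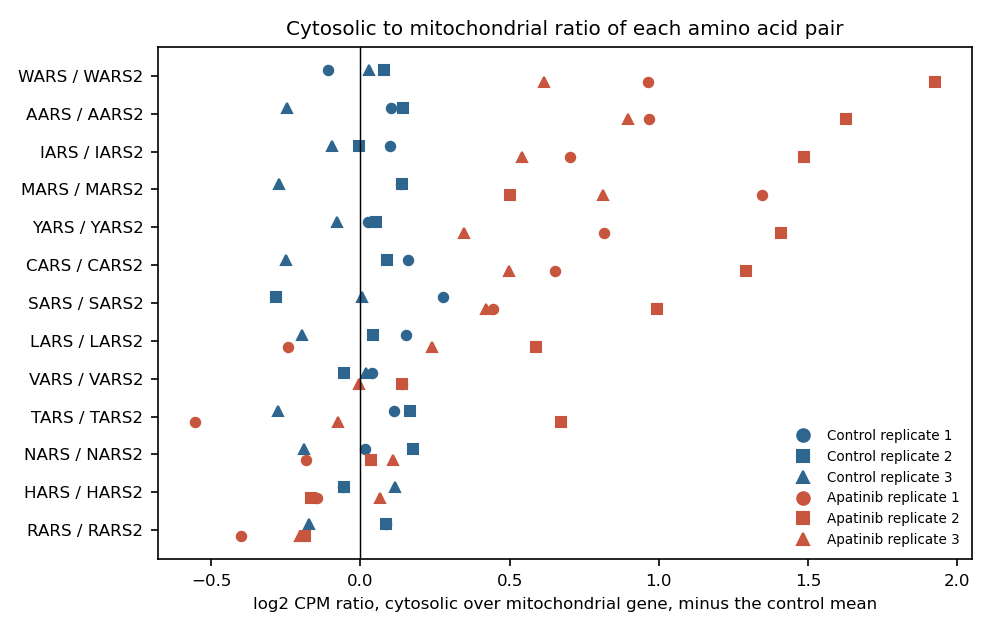
Log2 ratio of cytosolic to mitochondrial CPM minus its control mean (x axis) for the 13 amino acid pairs (y axis), with control replicates in blue and Apatinib replicates in orange. The Apatinib replicates lie to the right of all controls in the upper 7 pairs and to the left of them in the RARS / RARS2 pair.

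Levels were compared between genes by FPKM, which is scaled to transcript length. In the control, KARS, the lysyl-tRNA synthetase, was the most abundant member at 83.9 ± 3.78 FPKM (SD, n = 3), followed by TARS at 78.6 ± 14.4, WARS at 73.9 ± 3.74 and GARS at 73.2 ± 9.34. MARS2 was the lowest at 1.63 ± 0.18. Ranked by control level, only 7 of the 35 neighbouring pairs had replicate ranges that did not overlap, so most neighbours in this order cannot be ordered. By control mean, all 20 cytosolic members were above every mitochondrial member other than IARS2, which had 44.3 ± 2.11 FPKM and ranked 9, although the replicates of FARSB, the lowest cytosolic member, overlapped those of CARS2. With Apatinib, the means of RARS2 and CARS2 were above that of FARSB. The median member level was 40.8 FPKM for the cytosolic and 9.18 for the mitochondrial members. Within an amino acid pair, the control ratio of cytosolic to mitochondrial FPKM ran from 1.33 for isoleucine to 24.8 for methionine.

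With Apatinib the order at the top changed. WARS was then the most abundant at 181 ± 83.7 FPKM, followed by AARS at 144 ± 32.4, GARS at 136 ± 51.9 and SARS at 127 ± 28.6. KARS, with 80.2 ± 1.45 FPKM, ranked 6. These ranks are of means that include the high Apatinib replicate 2. In replicates 1 and 3, SARS was above GARS and KARS above IARS. The FPKM of the 20 cytosolic members summed to 1177, 1645 and 1127 in the Apatinib replicates and to 961, 902 and 833 in the controls. Those of the 16 mitochondrial members summed to 163, 155 and 167 against 173, 166 and 171. The cytosolic sums did not overlap between the groups, with Apatinib above, while the mitochondrial sums overlapped.

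**Figure D5:**
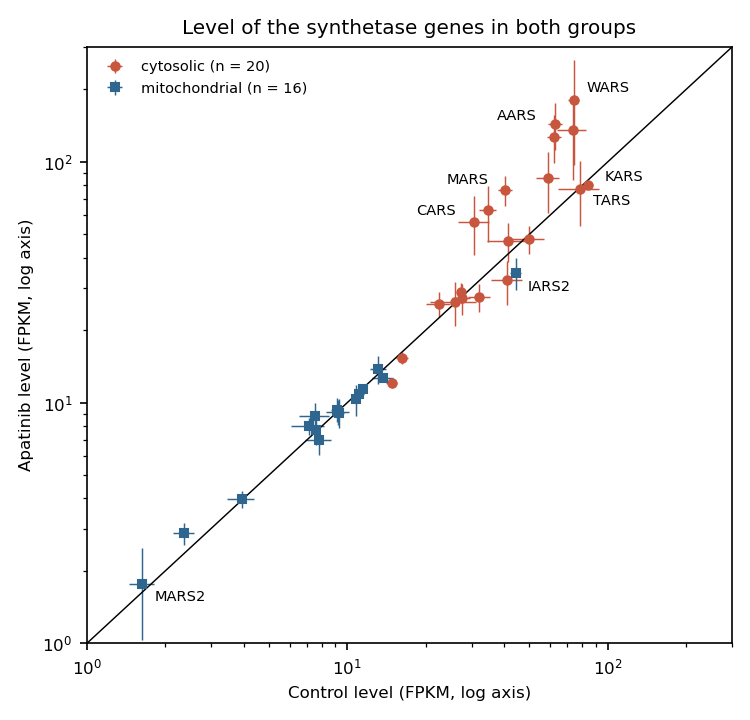
Mean FPKM with Apatinib (y axis, log scale) against mean FPKM in the control (x axis, log scale) for the 20 cytosolic (orange circles) and 16 mitochondrial (blue squares) synthetase genes, with bars for the SD of 3 replicates and a line of equal levels. WARS, AARS, MARS and CARS lie above the line, KARS and TARS close to it, and IARS2 is the most abundant mitochondrial gene in both groups.

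The other genes of transfer RNA charging gave counts of calls near the background. Of 17 such genes (scaffold proteins, amidotransferase subunits, editing and end-processing enzymes, and further synthetases), 1 was called lower (5.88%, against 5.48% of all tested genes) and none higher (against 5.97%). Their median change was -0.02 on the log2 scale, against 0.00 for all tested genes. The called gene was TRNT1, which adds the CCA end that a transfer RNA needs before charging. It had 15.3, 19.8 and 18.0 CPM in the treated replicates against 30.8, 30.6 and 22.4 CPM in the controls, without overlap, and fell by 0.66 on the log2 scale (SE 0.17, edgeR FDR 0.0286). Its call was lost in 4 of the 6 fits without 1 replicate, where the edgeR FDR reached 0.136. Over those 6 fits its log2 fold change ran from -0.79 to -0.56. The call was also lost with control replicates 1 and 2 summed, and with limma on FPKM, which called EEF1E1 lower instead. The scaffold genes AIMP1, AIMP2 and EEF1E1 had log2 fold changes of -0.23, 0.00 and -0.54 and were not called with edgeR on the counts.

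Of 22 genes known to act with or downstream of ATF4, 9 were called higher (40.9%, against 5.97% of all tested genes) and none lower. Their median change was 0.83 on the log2 scale. ATF4 itself had 416, 473 and 366 CPM in the treated replicates against 245, 246 and 283 CPM in the controls. The groups did not overlap, and the log2 fold change was 0.70 ± 0.13 (SE, n = 3, edgeR FDR 0.0104). PHGDH, the first enzyme of serine synthesis, had 232, 227 and 188 CPM against 90.4, 83.6 and 84.4, and its log2 fold change was 1.32 ± 0.12 (SE, n = 3, edgeR FDR 0.000437). In PHGDH, unlike the called synthetases, Apatinib replicate 2 was not the highest. ASNS, the asparagine synthetase, had 263, 519 and 223 CPM against 118, 123 and 68.9, with a log2 fold change of 1.70 ± 0.30 (SE, n = 3, edgeR FDR 0.00847). Its groups did not overlap, and it shares 44.6% of its exon bases with AC079781.5 on the same strand in GENCODE 29.

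The serine pathway enzymes PSAT1 and SHMT2 rose by log2 fold changes of 1.46 and 1.01 (edgeR FDR 0.00718 and 0.0139). SLC7A5, a transporter of large neutral amino acids, rose by 1.07 (0.63 without Apatinib replicate 2), the translation repressor EIF4EBP1 by 0.76 and the pseudokinase TRIB3 by 1.54 (edgeR FDR 0.0256, 0.0213 and 0.0268). SLC3A2, the partner chain of SLC7A5, was the remaining called gene, with 1.03 (edgeR FDR 0.0453). It had 302, 656 and 225 CPM against 205, 186 and 187, so Apatinib replicate 2 stood far above the others. DDIT3, which shares 27.2% of its exon bases with MARS on the opposite strand, had 16.1, 43.4 and 10.7 CPM against 15.3, 13.2 and 12.6, with overlap. The estimate for DDIT3 was 0.77 on the log2 scale (edgeR FDR 0.205) and -0.03 without Apatinib replicate 2. SLC3A2 and DDIT3 were named after their values were seen. Apatinib replicate 2 was the highest replicate in 20 of the 22 genes, against 22.5% of all tested genes. Without control replicate 1 or 2, ATF4, SHMT2, SLC7A5, EIF4EBP1 and TRIB3 were no longer called, whereas PHGDH, PSAT1 and ASNS were. The size of change stayed similar there, with log2 fold changes of 0.66 and 0.66 for ATF4, 1.11 and 1.12 for SLC7A5 and 1.60 and 1.66 for TRIB3. On this list 3 genes were called with control replicates 1 and 2 summed (1.24% of all genes called higher), 3 without control replicate 1 (1.15%), 3 without control replicate 2 (1.29%), 14 without Apatinib replicate 3 (6.17%), 6 with the GC correction (4.79%), 18 without a filter on low counts (3.98%) and 16 with the replicate number as a block (6.43%). The GC correction ended the calls of SLC7A5, EIF4EBP1 and TRIB3 (edgeR FDR 0.0685, 0.0524 and 0.0618). Their log2 fold changes were then 0.86, 0.54 and 1.32. TRIB3 was not called with DESeq2 (FDR 0.0602), and its log2 fold change was 0.81 without Apatinib replicate 2. Of the 18 genes of this list with a RefSeq window, 5 held the response element (27.8%).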

How the data were processed

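RNA of 3 Apatinib and 3 control replicates of SW872 cells was sequenced, and groups were taken from the labels. The authors deposited a gene by sample table of raw counts and, for each sample, a file of FPKM. The submitters' processing notes name CASAVA, STAR 2.7.1a and the hg19 build, while the counting program, annotation and strand setting are not given in the sources used here. A column in the FPKM file of an Apatinib replicate, headed with a control label, was not used (1 column).

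The counts were fitted with edgeR 4.0.16 under R 4.3.3, with the default filter on low counts, TMM scaling (factors 0.952 to 1.03) and the quasi-likelihood test of Apatinib against control over all 16290 genes that passed, with Benjamini-Hochberg adjustment. Total counts were 17043314 to 22067558, and the model includes counting error. The biological coefficient of variation was 0.149. Calls used the limits of the study's methods (FDR under 0.05, log2 fold change above 0.5 in size). CPM uses the TMM factors, and the log2 CPM of the pair ratios a prior count of 2. Alternatives were DESeq2 1.42.0, its size factors (RLE), filters, a replicate block, each replicate left out, control replicates 1 and 2 summed, limma 3.58.1 on log2 FPKM (pseudocount 1 or 0.1, mean FPKM over 0.5, or unfiltered), and, added after seeing the data, a GC correction by loess (span 0.3). The tests were checked on simulated data.

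The members and lists were chosen with earlier results of these data known. Values in every sample are given for each called member, its partner in the other compartment and the 3 uncalled members of each compartment with the smallest p values. Of the other lists, each called gene, up to 8 by p value, is named. Genes named beyond this rule are given with few values. Protein sequences were not used here.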

Additional observations from a re-analysis of the deposited data

How the results depend on the processing

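The 8 called cytosolic members had a log2 fold change above 0 in every fit, and all 8 were called with DESeq2, RLE size factors, no filter, at least 10 counts in every sample and the GC correction. Leaving out 1 replicate gave 5 to 8 called cytosolic members, 0 mitochondrial members, 0 to 1 other transfer RNA charging genes, 3 to 14 ATF4 genes and 275 to 2594 of all genes. The cytosolic median then ran from 0.10 to 0.19 and the mitochondrial median from -0.06 to 0.10. In the same fits the log2 fold change ran from -0.12 to 0.094 for AARS2, -0.13 to 0.038 for CARS2, -0.24 to 0.29 for MARS2, -0.062 to 0.089 for WARS2, -0.069 to 0.11 for YARS2, -0.17 to 0.10 for TARS and -0.026 to 1.12 for DDIT3, so the direction of these genes is not fixed. Pairs without overlap numbered 8 by FPKM, and 8 to 10 with 1 replicate left out. Leaving out a replicate cannot make separated groups overlap, so that count could not fall. With control replicates 1 and 2 summed, the calls were 292 over all genes, 4 cytosolic, 0 other charging genes and 3 ATF4 genes, where the construction leaves 1 sample fewer. Limma on FPKM gave 796 (pseudocount 1) and 810 (0.1) over all genes, 6 cytosolic members without GARS and IARS, and 4 ATF4 genes in each. Limma without a filter, which tested 33823 genes, gave 9 over all genes, 0 cytosolic, 0 other charging genes and 0 ATF4 genes. The ATF4 genes called were 18 without a filter on counts, where 2559 of 32596 genes were called in all. With the GC correction the cytosolic median was 0.30, and the differences of IARS2, FARSB, DARS and RARS were all between -0.066 and -0.010. Signs were reversed for AARS2 without a filter (0.0053), SARS2 on FPKM (-0.14, -0.16 and -0.14 without a filter), WARS2 at 10 counts in every sample (-0.0009) and TARS with the summed controls (0.018) and the GC correction (0.041). The cause was not tested.

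Replicate numbers did not pair the samples: the correlations of deviations from the group means across genes were -0.26, 0.08 and -0.22 for numbers 1 to 3. With the replicate block, 2215 genes were called in all, 8 of them cytosolic members, 0 mitochondrial, and 16 were ATF4 genes. Counts as low as those of SARS2 limit its estimate, and the number of samples limits the pair ratios.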
